A study of Drosophila melanogaster with 8 samples.

Results

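Transcripts of whole fly heads were compared at the moment a sequence of 2 drugs ended, on day 10 of the experiment. The comparison takes in the 4 day-10 arrays of a series of 8, and 7470 of the 13824 cDNA clones on the slide. A clone was kept where at least 3 of the 4 arrays gave it a value and both dye orientations were among them. All flies were unmated males of the wild-type strain Oregon-R, 3 to 4 days old at the start. The drug-fed flies received pentylenetetrazole at 8 mg/ml in their food for 7 days, followed by vigabatrin at 24 mg/ml for 3 days. Their controls ate normal food for the same 10 days. The other 4 arrays, used here to estimate the spread and for 1 comparison, hold flies given the same drugs and then 4 days of normal food, with controls of day 14. Each array carried 1 pool of treated heads and 1 parallel pool of control heads, and the submitters describe the 4 arrays of a day as biological replicates. No group received pentylenetetrazole alone or vigabatrin alone, so the effects of the 2 drugs cannot be told apart.

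Pentylenetetrazole is a convulsant that blocks chloride channels opened by the inhibitory transmitter GABA. Vigabatrin is an antiepileptic that inactivates GABA transaminase, the enzyme that breaks GABA down. A fly head holds more than brain and eyes: it also contains fat body, the insect tissue that stores fat and glycogen, makes the lipid carriers of the blood (haemolymph) and secretes antimicrobial peptides. Glia wrap the brain and form its blood barrier, through which trehalose, the main circulating sugar, has to be transported. In such bulk samples fewer cells of a type and less RNA per cell cannot be told apart.

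All values below are log2 ratios of treated over control heads, relative to the median of their array, so that -1 means 50% of the control level where the array median means no change. The direction is likely rather than settled: it takes the deposited ratio as Cy5 over Cy3 and turns the sign on arrays 3 and 4, where treated RNA carried Cy3. If the ratios had already been turned before deposit, 0 clones would pass (limma, 1435 at an unadjusted p under 0.05), and 7 of the 14 genes named below as changed would keep their sign. Arrays 1 to 4 gave values for 9915, 10140, 7297 and 4210 clones, so the last array is the thinnest. Of the 31 calls below, 26 had a value on all 4 arrays. The ratios of arrays 1 and 2 correlated with r = 0.45 over 9066 clones and those of arrays 3 and 4 with r = 0.24 over 3066, each pair sharing a dye orientation. Across orientations, array 4 correlated with arrays 1 and 2 (0.25 and 0.19), while array 3 ran weakly opposite to them (-0.14 and -0.13). Relative to neighbouring clones on the slide, arrays 1 and 2 correlated with 0.2 and arrays 3 and 4 with 0.27. In that setting array 4 had 0.18 and 0.14 with arrays 1 and 2, and array 3 had 0.04 and -0.05. Part of the agreement of arrays 1 and 2 was thus shared by clones printed close together.

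Few transcripts differed from the controls once all clones were considered, and nearly all of these were lower. Of the 7470 clones, 31 passed an adjusted p of 0.05 (0.415%), 29 as lower (0.388%) and 2 as higher (0.0268%), by a limma fit with a dye term and Benjamini-Hochberg adjustment. The 29 lower clones ran from -0.64 to -1.59, and each lay below the array median on every array that measured it, as did 12.0% of all clones. The annotation gives a single gene for 14 of the 31. The other 17, of which 16 were lower (-0.64 to -1.44) and 1 higher (0.87), cannot be named. The median standard error was 0.13 for clones on 4 arrays and 0.16 for clones on 3. At an unadjusted p under 0.05 the balance was the other way, with 556 clones lower (7.44%) and 753 higher (10.1%).

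The size of this set rests on single arrays. Without arrays 1, 2, 3 and 4 of day 10 in turn, 3, 18, 91 and 0 clones passed, and without the 4 arrays of day 14, which only add to the estimate of the spread and the dye term, 3, 3, 1 and 1. With the day-10 arrays fitted alone, 0 passed (1070 at an unadjusted p under 0.05). Restricting the test to the 4563 clones that also had at least 3 day-14 values gave 138 (3.02%), 100 lower (2.19%) and 38 higher (0.833%). All 38 lay in the first 16 of 48 print blocks, a part of the slide described below. Restricting it to the 2828 clones on all 4 day-10 arrays gave 160. The 2907 tested clones with under 3 day-14 values held 0 of the 31 calls. Such clones leave fewer values to estimate their spread, so their failure to pass says less about day 10. All 31 were among the 138, which come from the same values with fewer clones tested. They were also among the 404 clones (5.41%) that passed without the median subtracted, of which 391 were lower (5.23%) and 13 higher (0.174%). Without that step all clones lie lower (median -0.172 against 0.042), so neither overlap is separate support for the 31. The sizes of the named genes moved less: with any 1 array left out, the values of CG2233, the most variable, ran from -1.88 to -1.31. Each gene kept its sign, which its selection for 1 sign on every measured day-10 array made nearly certain. Their calls were less steady, from 0 of 7 such fits for Alg7 to 5 of 8 for CG44014.

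**Figure D1:**
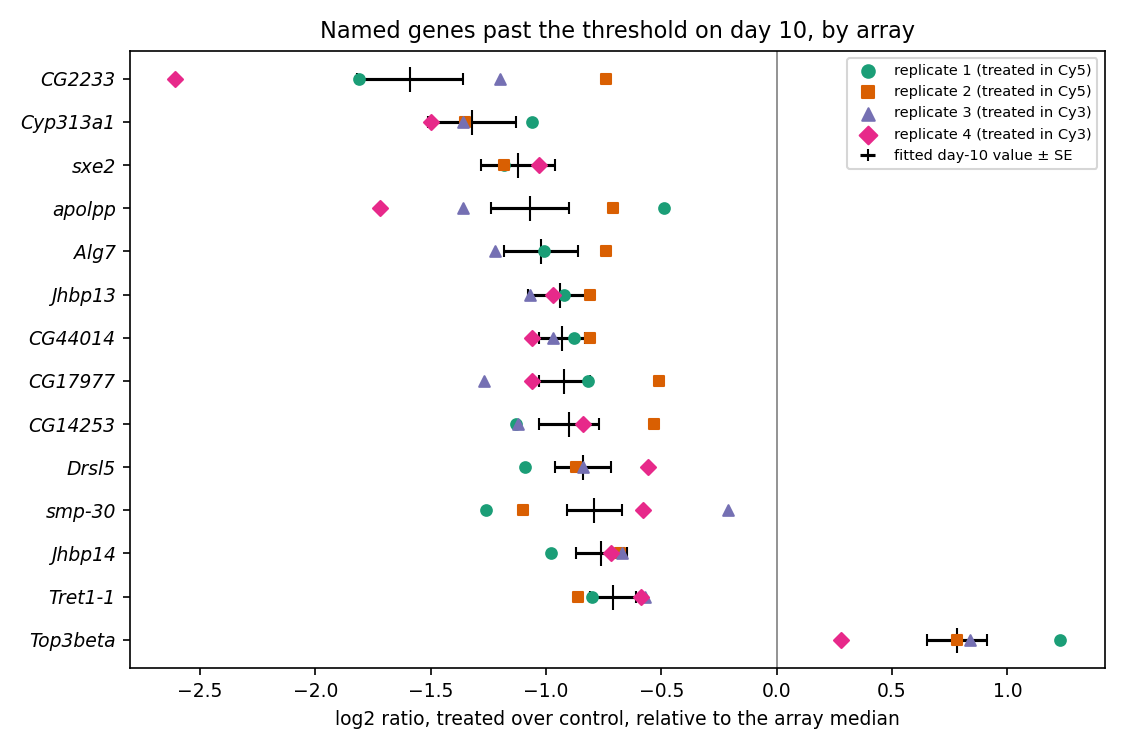
Log2 ratio of treated over control heads relative to the array median (horizontal axis) for the 14 named genes past the threshold, with 1 symbol per day-10 array and the fitted value ± SE as a cross with bars. For 13 genes each array lies left of 0, from -0.21 (smp-30, array 3) to -2.61 (CG2233, array 4), and for Top3beta each lies right of it.

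The largest decrease belonged to CG2233, a gene with no function assigned here. Its ratios were -1.81, -0.74, -1.20 and -2.61 on arrays 1 to 4. Every array was low, but the arrays ranged widely and neither dye orientation was lower throughout. It fell by 1.59 ± 0.23 on the log2 scale (SE, n = 4, adjusted p = 0.0397), to 33.2% of the control level.

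A lipase-family gene and a lipid carrier gene were also lower. The gene sxe2, which encodes a protein of the lipase family, had -1.18, -1.18 and -1.03 on the 3 arrays that measured it. These were the closest-set values of the 14 changed genes. It fell by 1.12 ± 0.16 (n = 3, adjusted p = 0.0406), to 46.0% of control.

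The gene apolpp encodes the precursor of the apolipophorins, the protein core of the main lipid-carrying particle of the haemolymph. One clone of it had -0.49, -0.71, -1.36 and -1.72. The arrays with treated RNA in Cy3 were the lower pair, and all 4 were below 0. This clone fell by 1.07 ± 0.17 (n = 4, adjusted p = 0.0432). A second clone, printed elsewhere on the slide, had -0.12, 0.02, -0.87 and -1.74, with arrays 3 and 4 again the lower pair and arrays 1 and 2 near the array median. It averaged -0.68 and did not pass (adjusted p = 0.12). Relative to its neighbours on the slide it had -1.18 (adjusted p = 0.0245).

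Among enzymes, Cyp313a1, a member of the cytochrome P450 family of oxidases, had -1.06, -1.35, -1.36 and -1.50. The 4 arrays were close, with an SD of 0.18. It fell by 1.32 ± 0.19 (adjusted p = 0.0397), to 40.1% of control. Alg7, which makes the first sugar-lipid of N-glycan assembly, had -1.01, -0.74 and -1.22 on 3 arrays and fell by 1.02 ± 0.16 (n = 3, adjusted p = 0.0406). Relative to neighbouring clones it was as low (-0.99) but did not pass (adjusted p = 0.121). The gene smp-30, named for senescence marker protein 30, a family of calcium-binding lactone hydrolases, had -1.26, -1.10, -0.21 and -0.58. Arrays 1 and 2 were much the lower, and array 3 came nearest to the array median of any value among the 13 decreased genes. It fell by 0.79 ± 0.12 (adjusted p = 0.0406).

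Jhbp13 and Jhbp14 carry the name of juvenile hormone binding proteins, a family of small secreted proteins that bind that insect hormone. Jhbp13 had -0.92, -0.81, -1.07 and -0.97, with an SD of 0.11 over the arrays. It fell by 0.94 ± 0.14 (adjusted p = 0.0406). Jhbp14 had -0.98, -0.68, -0.67 and -0.72, low on all 4 arrays with array 1 apart from the rest, and fell by 0.76 ± 0.11 (adjusted p = 0.0406). Its second clone went against the first. That clone had 1.06, 0.97 and -0.39 on arrays 1 to 3, an average of 0.42 (adjusted p = 0.358), and -0.03 relative to its neighbours. The decrease of Jhbp14 therefore rests on 1 of 2 clones. For comparison, over the 320 genes with several tested clones the median range between clones was 0.21 and the largest was 1.18, which is that of Jhbp14.

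Drsl5, a drosomycin-like gene of the antifungal peptide family, had -1.09, -0.87, -0.84 and -0.56. All arrays were low, array 4 the least. It fell by 0.84 ± 0.12 (adjusted p = 0.0397), to 55.9% of control. Tret1-1, a facilitated trehalose transporter found in the glia of the blood-brain barrier, had -0.80, -0.86, -0.57 and -0.59. It was low on every array in either dye orientation. It fell by 0.71 ± 0.10 (adjusted p = 0.0397), to 61.3% of control, and on day 14 its 4 arrays were also low (-0.80, -0.50, -0.53 and -0.47). A second clone had -0.89, -0.94 and -0.12 and did not pass (-0.52, adjusted p = 0.154). The related transporter gene Tret1-2, chosen after its values were seen, had -0.71, -0.94 and -1.44 and did not pass either (-1.13, adjusted p = 0.0715). Tret1-2 had only 1 day-14 value, which leaves less to estimate its spread. Whether cDNA clones of such related genes bind each other's RNA was not tested.

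The 3 further decreased genes with a name, CG44014, CG17977 and CG14253, have no function assigned here. CG44014 had -0.88, -0.81, -0.97 and -1.06, and with ± 0.10 it had the smallest adjusted p of the named genes (-0.93, adjusted p = 0.0169). It was also the one that passed most often when arrays were left out, in 5 of 8 fits. CG17977 had -0.82, -0.51, -1.27 and -1.06 and fell by 0.92 ± 0.11 (adjusted p = 0.03). CG14253 had -1.13, -0.53, -1.12 and -0.84 and fell by 0.90 ± 0.13 (adjusted p = 0.0406). In both, array 2 was the least low.

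One named gene passed as higher. Top3beta, a topoisomerase, had 1.23, 0.78, 0.84 and 0.28, above the array median on every array and lowest on array 4. It rose by 0.78 ± 0.13 (adjusted p = 0.0406), to 172% of control. On day 14 its 4 arrays lay at or below 0.07. Most of this increase was shared with its surroundings on the slide: relative to the clones printed next to it, Top3beta had 0.27 (adjusted p = 0.404). It was printed in the second of 48 blocks, and the first 16 blocks held 78.4% of all clones higher at an unadjusted p under 0.05, against 37.8% of the clones tested. The unnamed higher clone likewise had 0.87 relative to the array median and 0.19 relative to its neighbours. The clone with the highest fitted value, CG14739, which has no function assigned here and was chosen after its values were seen, had 1.30, 1.20 and 1.09 on arrays 1 to 3. It averaged 1.17 (adjusted p = 0.0672) and 1.09 relative to its neighbours (adjusted p = 0.0538), and passed in neither setting. CG14739 had 0 day-14 values, which leaves less to estimate its spread.

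**Figure D2:**
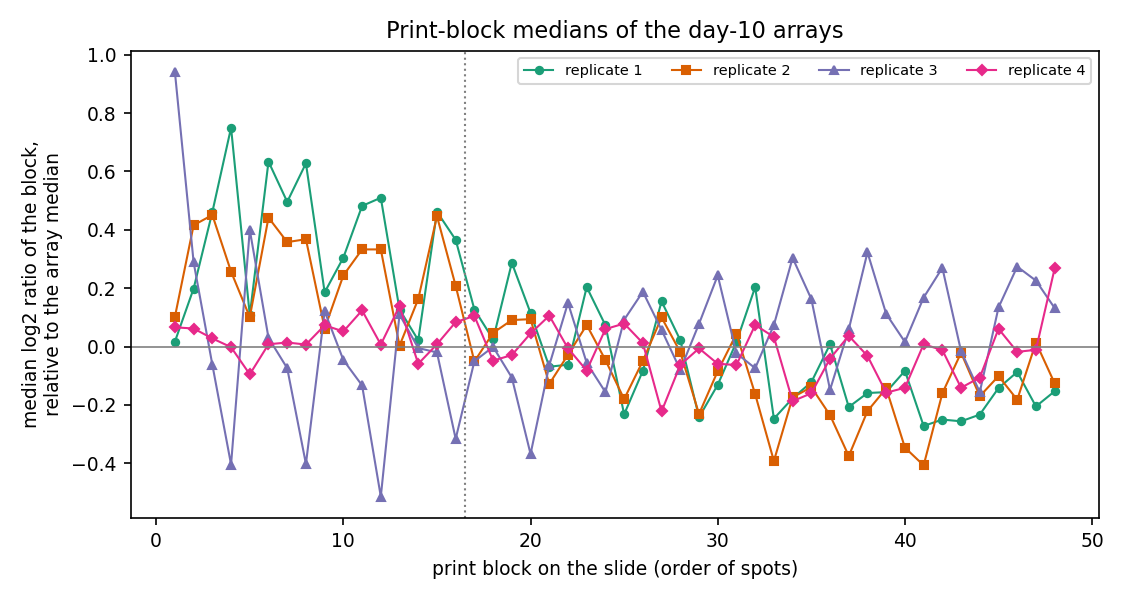
Median log2 ratio of each of the 48 print blocks relative to the array median (vertical axis) along the slide (horizontal axis), 1 line per day-10 array, with a dotted line after block 16. On array 1 the block medians run from -0.27 to 0.75 and on array 2 from -0.41 to 0.45, high among the first 16 blocks on both, on array 3 they run from -0.51 to 0.94, and on array 4 from -0.22 to 0.27.

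The decreases were set against their place on the slide as well. Of the 29 lower clones, 8 lay in the first 16 blocks (27.6%, against 37.8% of the clones tested), and the 29 were spread over 19 blocks. Those first blocks ran high on arrays 1 and 2, so a low count there cannot show that the decreases were free of place. Later blocks ran low on these 2 arrays, with medians down to -0.27 and -0.41. After each value was set against the median of its neighbours on the slide, 30 of 7273 clones passed (0.412%), 29 of them lower (0.399%) and 1 higher (0.0137%). Of the 31 calls, 29 had such a local value and 19 also passed, all lower. Among the named genes these were CG2233 (-1.35), sxe2 (-1.11), Jhbp13 (-0.96), smp-30 (-0.81), CG14253 (-0.79), CG17977 (-0.76), Drsl5 (-0.72), Jhbp14 (-0.72) and CG44014 (-0.63). Tret1-1 kept its value (-0.71) but not its call (adjusted p = 0.0687), while for Cyp313a1 and the decreased clone of apolpp too few neighbours had values to form one.

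Gene lists were then read by their counts and medians, beside those of all clones. The lists were chosen with earlier results of these data known, and a few symbols were removed after the values were seen. Counts and medians of lists are therefore descriptions and no tests. Across 38 lists, 540 genes were tested, of which 5 fell and 0 rose (limma, all 5 named above). Over all clones the shares were 0.388% lower and 0.0268% higher. The other members are given by their values. List members not named above or in the naming rule were chosen after their values were seen. With the ratios read as already turned, several list medians given below as under 0 would be -0.06 for fat body, 0.00 for immune genes, -0.06 for glia, 0.14 for sugar metabolism, 0.08 for P450 genes, 0.18 for cytoplasmic ribosomal proteins and 0.06 for oxidative phosphorylation. The smaller negative medians, of lipid enzymes, proteasome, heat shock and autophagy genes, would be 0.19, 0.08, 0.10 and 0.14.

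Fat body and haemolymph proteins had the lowest median of the 38 lists, -0.53 over 13 tested genes, against 0.04 for all clones. As the lists were chosen with earlier results known, this rank and the counts below are descriptions. One of the 13 fell (sxe2, background 0.388%). The list counts apolpp by its second clone, which did not pass: both clones were on 4 arrays, and the one with the lower clone number stands for the gene. Relative to neighbouring clones 3 of the 13 passed as lower (background 0.399%), namely sxe2, Lsp2 and that clone of apolpp. At the looser level, 6 were lower at an unadjusted p under 0.05 (background 7.44%) and 5 lay below the array median on every array (background 12.0%). The list's median was -0.32, -0.24, -0.15 and -0.81 on arrays 1 to 4, so array 4 was the lowest, and -0.47 relative to neighbouring clones. Lsp2, a larval serum protein that serves as an amino acid store, had -0.74, -1.32 and -0.81 on arrays 2 to 4, low on each (-0.90 ± 0.18, adjusted p = 0.0776, and -0.96 relative to neighbours, adjusted p = 0.0404). Obp99b, which fat body expresses although it is named as an odorant-binding protein, had -1.26, -1.07 and -0.54 on arrays 1, 2 and 4 (-0.91 ± 0.17, adjusted p = 0.0776). A second clone of Obp99b disagreed between arrays, with 0.89, -0.01 and -1.60. AkhR, the receptor for adipokinetic hormone, through which fat body is told to release its stores, had -1.14, -0.68 and -1.0 (-0.85 ± 0.21, adjusted p = 0.12). Adh, the alcohol dehydrogenase, had -0.49, -0.13, -1.35 and -1.11 (-0.77 ± 0.16, adjusted p = 0.0801).

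The list was not uniformly low. The yolk protein genes Yp1 and Yp3 lay at -0.01 and -0.07, and Yp2 at 0.69, with 1.91 and 0.87 on arrays 1 and 2 and -0.26 on array 4 (adjusted p = 0.225). All pools were of males and ratios give no level, so how strongly yolk protein genes were expressed here is not known. Apoltp, a lipid transfer particle gene, had -0.23, and GLaz, a lipocalin gene, -0.11. Lsd-2, a lipid droplet coat gene, averaged -0.53 through array 1 alone, where it had -1.82. Among enzymes of lipid synthesis and breakdown 0 of 18 passed (limma, background 0.415%), and the median was -0.05. At an unadjusted p under 0.05, 2 were lower and 4 higher (backgrounds 7.44% and 10.1%). The list medians were 0.41 and 0.19 on arrays 1 and 2 and -0.25 and -0.28 on arrays 3 and 4, split along the dye orientation. Desat1, a fatty acid desaturase gene, followed that split with 0.62, 0.41, -1.02 and -1.17 (-0.29, adjusted p = 0.479), but passed relative to its neighbours (-0.68, adjusted p = 0.0398). AcCoAS, the acetyl-CoA synthase, had the lowest fitted value of the list (-0.32, -0.31, -0.65 and -0.78, adjusted p = 0.0733), while mag, a lipase gene, was the highest at 0.57 (adjusted p = 0.137) and had 0.13 relative to its neighbours.

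Of 14 antimicrobial and immune genes, 1 fell (Drsl5, background 0.388%) and 5 were lower at an unadjusted p under 0.05 (background 7.44%). The median was -0.12. Drs, which encodes drosomycin itself, had -1.38, -0.71 and -0.02, a decrease carried by arrays 1 and 2 (-0.55 ± 0.17, adjusted p = 0.158). The serpin gene nec, which restrains the Toll pathway, had -0.74, -0.12 and -0.81 (-0.62, adjusted p = 0.123), and SPE, a protease that activates the Toll ligand, had -0.46 (adjusted p = 0.168). BomT2, of the bomanin peptides that Toll induces, had -0.47, -0.12, -0.69 and -0.29 (-0.39 ± 0.11, adjusted p = 0.142), low on all 4 arrays. The receptor and its cytoplasmic relay lay near 0, with Tl at 0.01, pll at 0.11, Myd88 at 0.18 and tub at 0.28.

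Of 16 glial and blood-brain barrier genes, 1 fell (Tret1-1, background 0.388%), 6 lay below the array median on every array (background 12.0%), and the median was -0.16. The astrocyte gene alrm had -0.76, -0.66, -0.39 and -0.54 (-0.58 ± 0.15, adjusted p = 0.12). Gs2, the glutamine synthetase, which turns glutamate taken up by glia into glutamine, had -0.13, -0.37, -0.50 and -0.47 (-0.37 ± 0.11, adjusted p = 0.139). Both were low on all 4 arrays without passing. The gap junction gene Inx2 and the septate junction genes nrv2 and Gli had -0.39, -0.36 and -0.32. Nrg, Cont and the transporter Eaat2 lay at 0.12, 0.10 and 0.11. The engulfment receptor gene drpr was higher on all 4 arrays (0.36, 0.63, 0.36 and 0.36, adjusted p = 0.12), but had 0.05 relative to its neighbours on the slide. Relative to neighbours the median of the list was 0.00.

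**Figure D3:**
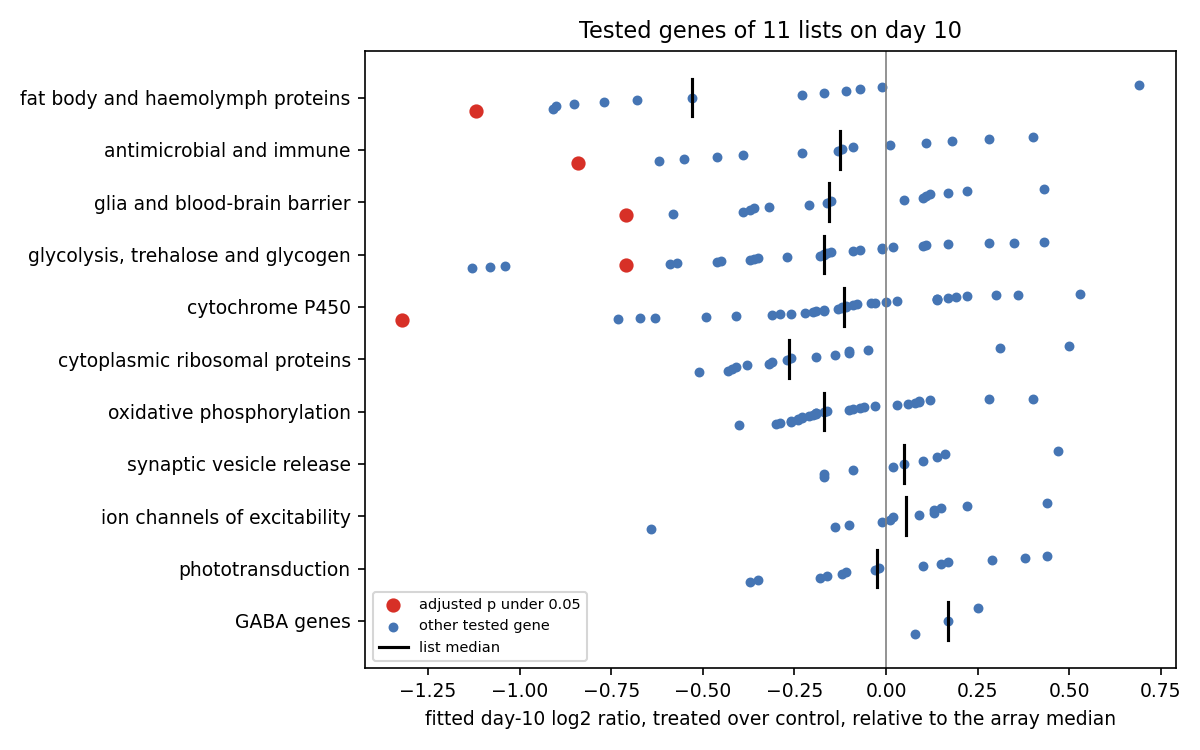
Fitted day-10 log2 ratio relative to the array median (horizontal axis) of each tested gene in 11 lists, with genes past an adjusted p of 0.05 as large red points and the list median as a black bar. The fat body list has its median at -0.53, the GABA genes and the synaptic and ion channel lists lie around 0, and the 5 red points, 2 of which are Tret1-1 in its 2 lists, all lie left of 0.

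Sugar metabolism had 1 fallen gene in 28, again Tret1-1 (background 0.388%), and 9 lower at an unadjusted p under 0.05 (background 7.44%), with a median of -0.17. Galk, the galactokinase, had -1.85, -0.70 and -1.0 (-1.08 ± 0.23, adjusted p = 0.106), and Miox, the first enzyme of inositol breakdown, had -1.54, -0.24, -1.21 and -1.16 (-1.04 ± 0.19, adjusted p = 0.0551). Taldo of the pentose phosphate pathway had -0.59, and Gpdh1, which links glycolysis to glycerolipid synthesis, had -0.57 (adjusted p = 0.108 and 0.12). Relative to neighbouring clones Taldo had -0.70 and was the one member of this list to pass (adjusted p = 0.0435, background 0.399% lower). Of the glycolytic enzymes, Eno, Gapdh1 and Pgi had -0.45, -0.37 and -0.36, whereas Pgk, Hex-A and Pfk had 0.11, 0.10 and 0.35. Tps1, which makes trehalose, had 0.28. The median of this list was -0.14 and 0.05 on arrays 1 and 2 but -0.54 and -0.56 on arrays 3 and 4, a split along the dye orientation.

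Of 34 cytochrome P450 genes, 1 fell (Cyp313a1, background 0.388%) and the median was -0.12, with a range from -1.32 to 0.53. At an unadjusted p under 0.05, 8 were lower and 1 higher (backgrounds 7.44% and 10.1%). After Cyp313a1 the lowest was Cyp12c1, with -0.11, -0.25 and -1.27 on arrays 1 to 3 (-0.73 ± 0.15, adjusted p = 0.124). Cyp4d21, a P450 gene with male-biased expression, had -0.50, -0.79, -0.74 and -0.63, low on all 4 arrays (-0.67 ± 0.24, adjusted p = 0.212). Of 15 genes of glycan assembly only Alg7 passed, as lower (background 0.388%), and the other 14 lay between -0.19 and 0.31. The enzymes of the dolichol-linked pathway that act after it, Alg2, Alg9 and Alg11, had 0.14, 0.11 and 0.25.

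**Figure D4:**
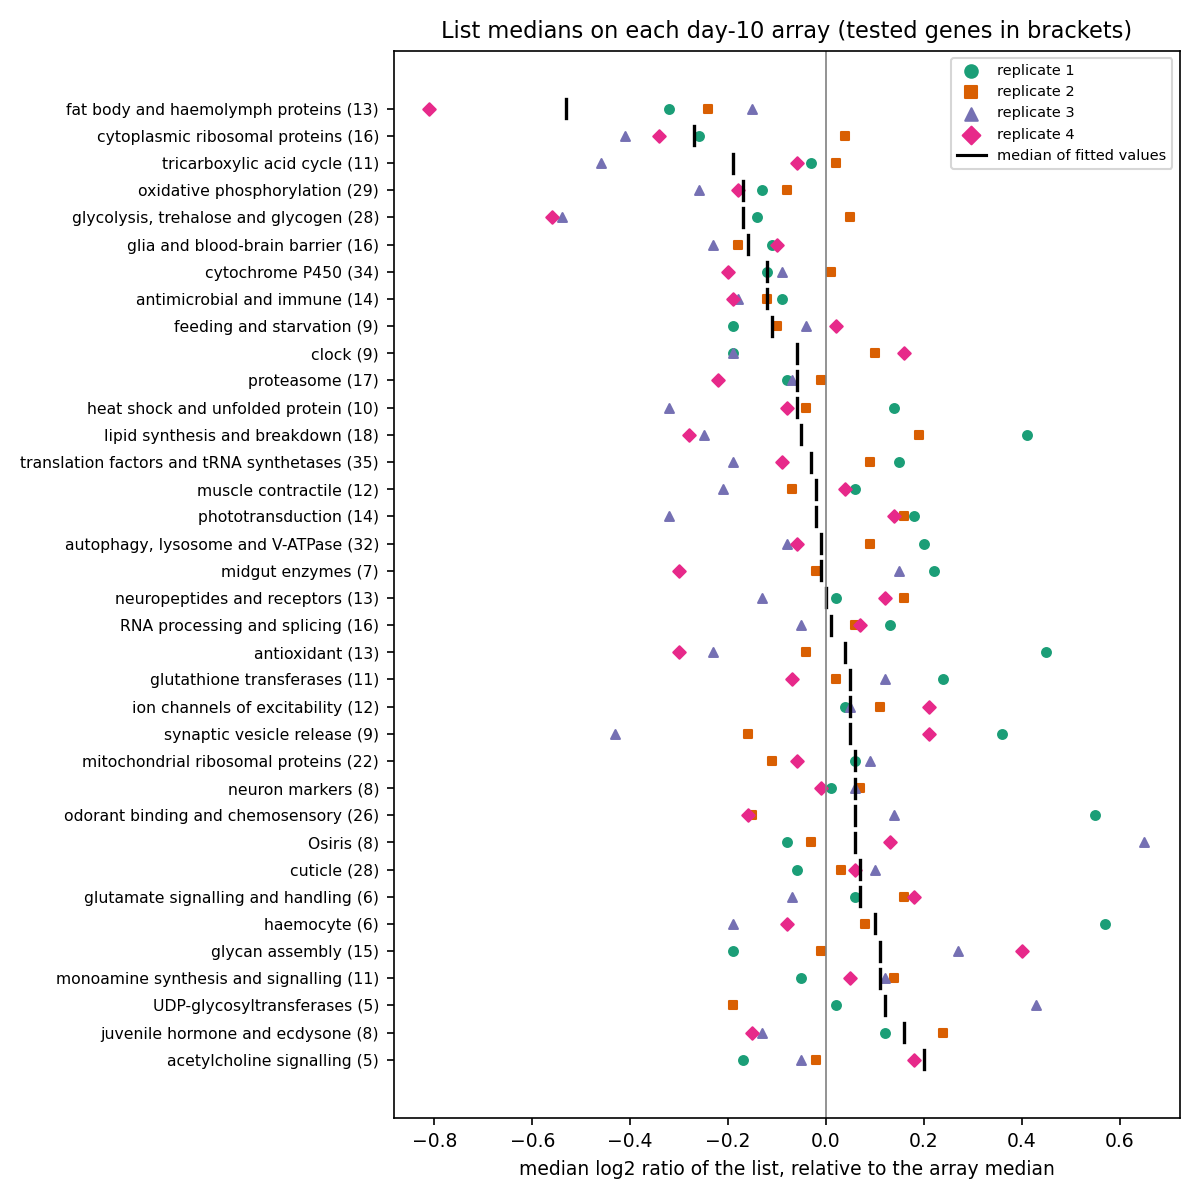
Median log2 ratio of the lists on each day-10 array, relative to the array median (horizontal axis, 1 symbol per array). The number of tested genes is in brackets, and the median of the fitted values is a black bar. The GABA list (3 tested genes) and the testis and accessory gland list (4) are not drawn. UDP-glycosyltransferases have no symbol for array 4. The fat body list lies left of 0 on all 4 arrays, from -0.15 to -0.81, while for sugar metabolism arrays 3 and 4 lie apart from arrays 1 and 2.

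The genes closest to the drugs' targets did not pass. Gad1, which makes GABA, had 0.54, 0.16, -0.53 and 0.14, on both sides of 0, and averaged 0.08 ± 0.14 (adjusted p = 0.825). Gabat, the GABA transaminase that vigabatrin inactivates, had 0.81, 0.12 and -0.31 on arrays 1, 2 and 4 and averaged 0.17 ± 0.24 (n = 3, adjusted p = 0.781). Lcch3, a subunit of GABA-gated channels, had 0.98, 0.36, -0.58 and 0.24 and averaged 0.25 ± 0.21 (adjusted p = 0.597). In all 3 genes the arrays spread over more than 1 log2 unit, and the standard errors lay above the 0.13 typical of clones on 4 arrays. The other 3 GABA genes named on the slide had too few values to be tested.

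In 6 other neuronal lists 0 of 56 genes passed (limma), with 3 lower and 4 higher at an unadjusted p under 0.05, against backgrounds of 0.415%, 7.44% and 10.1%. Counts this close to the background say nothing particular about neuronal genes. The median was 0.05 over 9 genes of synaptic vesicle release, 0.05 over 12 ion channel genes, 0.07 over 6 genes of glutamate signalling, 0.20 over 5 of acetylcholine signalling, 0.11 over 11 of monoamine signalling and 0.00 over 13 neuropeptide genes. Relative to neighbouring clones these medians were, in the same order, -0.06, 0.03, -0.01, -0.04, -0.04 and 0.06. The vesicle protein gene nSyb had 1.47 and 0.89 on arrays 1 and 2 but -0.46 and -0.01 on arrays 3 and 4 (0.47 ± 0.17, adjusted p = 0.212), and 0.05 relative to its neighbours. Ih, a channel gene of the hyperpolarization-activated current, had 1.02, 0.27, 0.26 and 0.21 (0.44 ± 0.16, adjusted p = 0.203). It was above the array median on all 4 arrays, with array 1 far above the other 3. Relative to its neighbours on the slide Ih had 0.2 (adjusted p = 0.589). The photoreceptor of the circadian clock, cry, had -0.55, -0.41, -0.51 and -0.63, low on all 4 arrays with an SD of 0.09 (-0.53 ± 0.16, adjusted p = 0.154). Other members of the clock list lay elsewhere: tw had 0.90, 0.84 and 0.18 on arrays 1, 2 and 4 (0.59 ± 0.16, adjusted p = 0.129, and 0.18 relative to its neighbours), per had 0.41 (adjusted p = 0.546), and Clk and Pdp1 had -0.07 and 0.06.

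In 6 housekeeping lists 0 of 126 genes passed (limma), with 19 lower and 10 higher at an unadjusted p under 0.05, against the same backgrounds of 0.415%, 7.44% and 10.1%. The median was -0.27 for proteins of the cytoplasmic ribosome, with 8 of 16 lower at an unadjusted p under 0.05 and array medians of -0.26, 0.04, -0.41 and -0.34. The lowest were RpL23 (-0.51, adjusted p = 0.155) and RpL15 (-0.43, adjusted p = 0.155). The median was 0.06 over 22 genes of the mitochondrial ribosome, but single members lay far from it. The lowest, mRpS34, had -1.18, -0.21, -0.79 and -2.62 (-1.2 ± 0.3, adjusted p = 0.12). The highest, mRpL54, had 1.16, 0.92, 0.15 and 0.47 (0.68 ± 0.12, adjusted p = 0.065), and 0.27 relative to its neighbours. Oxidative phosphorylation genes had -0.17 over 29, with ATPsynbeta, a subunit of the ATP synthase, the lowest at -0.40 (adjusted p = 0.179). Proteasome, heat shock and autophagy genes had -0.06, -0.06 and -0.01 over 17, 10 and 32 genes.

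The labelled tissue was set beside markers. Of markers named on the slide, 2 of 3 for neurons, 3 of 4 for photoreceptors, 5 of 6 for glia and 5 of 6 for fat body had values on enough arrays to be tested, against 0 of 3 for haemocytes, 1 of 6 for testis and accessory gland and 4 of 10 for midgut. Among all clones with 1 gene, 4751 of 7558 were tested, so marker counts this small say little about which tissues were present. A value means that the spot passed the authors' detection filters, and ratios give no level of a gene within a pool. Marker medians were -0.68 for fat body, -0.37 for glia, -0.18 for photoreceptors, 0.25 for neurons and -0.02 for muscle. With the ratios read as already turned they would be 0.22, -0.07, 0.31, 0.34 and 0.32, with the sign reversed for fat body, photoreceptors and muscle. Relative to neighbouring clones they were -0.96, -0.43, -0.18, -0.08 and 0.08. The part that a different share of fat body in the treated pools may have in the decreases above was not tested. The 5 fat body markers are sxe2, Lsp2, apolpp, Yp1 and Yp2, whose values are given above, with the limit stated there for yolk protein genes in males.

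The decreased genes were set beside their values on day 14, after 4 days without drugs. No clone differed between the days after adjustment (0 of 4563, 0.0%, smallest adjusted p = 0.321), with 479 at an unadjusted p under 0.05 (10.5%). The 29 lower clones had a median of -0.93 on day 10 and -0.37 on day 14. All 29 were below 0 on day 14 and nearer to 0 than on day 10, and 21 had an unadjusted p under 0.05 for the difference. As these clones were chosen by their low day-10 values, that shift is a description and no test. Alg7 and Top3beta lay farthest from their day-10 values, at -0.04 and -0.13 on day 14, with differences of -0.98 ± 0.19 and 0.91 ± 0.17 (adjusted p = 0.321 each). Tret1-1 lay nearest, at -0.58 on day 14 against -0.71 (difference -0.13 ± 0.14, adjusted p = 0.741). CG2233 and Cyp313a1 had -0.90 each on day 14.

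**Figure D5:**
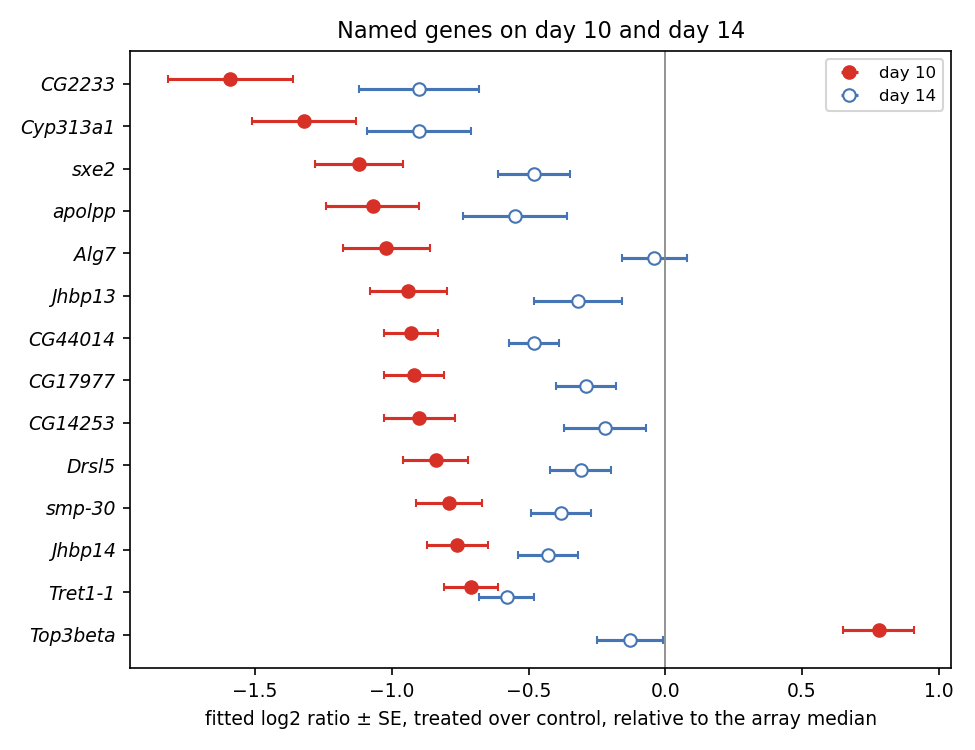
Fitted log2 ratio ± SE relative to the array median (horizontal axis) of the 14 named genes on day 10 (filled red) and on day 14 (open blue). The 13 decreased genes lie left of 0 on both days and farther left on day 10, while Top3beta lies at 0.78 on day 10 and -0.13 on day 14.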

How the data were processed

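Two-colour cDNA slides were scanned (GenePix 4000A), quantified (GenePix Pro 6.0) and normalized by ratio (Acuity 4.0), per the submitters' design text, which also states filters on intensity, background, saturation and signal-to-noise. The table deposited by the authors holds 1 log2 ratio per spot. Its log2 scale was read from the values, and neither its direction nor a genome build is given in the sources used here. Both neighbouring spots of a clone were averaged, signs turned on dye-swapped arrays and each array's median subtracted. Scanner intensities were not used, and the number of arrays limits the precision. Symbols were updated through the RefSeq gene table for 7447 of 7558 clones with 1 gene.

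limma 3.58.1 in R 4.3.3 fitted all 8 arrays, with a coefficient per day and a clone-specific dye term, and was tested on simulated data. Local centring subtracted the median of neighbours within 2 rows and 3 clones of a print block (at least 5 neighbours). Alternatives were other centrings, scaling, filters, dye terms, array weights, a replicate block and each array left out.

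Named genes were those past the threshold with 1 sign on every array (at most 20 lower and 12 higher), all tested GABA genes and, per list, up to 4 members past the threshold or the 2 with the lowest p. In lists a gene counts once, by the clone on most day-10 arrays, then the lower number. The lists and the comparison were chosen with earlier results of these data known, and a few misplaced symbols were removed from lists after the values were seen. P-values measure the spread between pools.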

Additional observations from a re-analysis of the deposited data

Results flagged for a closer look

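Among 125 groups of 4 arrays examined (named genes on either day and list medians on day 10), 8 held 1 array far from the other 3, by the ratio of the gap to the whole range (Dixon's test at the 95% level). Chance alone gives about 1 in 20. On day 10 these were Jhbp14 (0.843, array 1 at -0.98 against -0.72 to -0.67), the channel gene Ih (0.924, array 1 at 1.02), ATPsynbeta (0.926, array 3 at -0.90), the microtubule-associated gene Map205 (0.851, array 1 at 0.48), and the median of the phototransduction list (0.929, array 3 at -0.32 against 0.14 to 0.18). On day 14 they were Ih again (0.84, array 2 at -0.57), AcCoAS (0.859, array 4 at -0.40) and the peroxiredoxin gene Prx3 (0.954, array 3 at -0.40).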

How the results depend on the processing

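Against 31 clones, 404 passed as deposited (96.8% lower, with a median of all clones of -0.172 against 0.042), 51 with print-block centring, 51 with arrays scaled to one spread (84.3% lower against 93.5%), 2 without a dye term, 9 with array weights, 0 with day-10 arrays alone with or without a dye term, 160 on clones of all 4 day-10 arrays (68.8% lower), 138 on clones of at least 3 arrays of each day (72.5% lower, chosen after seeing the data), and 0 with ratios read as already turned, also with local centring. Leaving out 1 array gave 0 to 91 clones (70.3% lower without day-10 replicate 3), and 0 to 38 with local centring, with 19, 13 and 12 without day-14 replicates 1, 2 and 4. The 5 fallen list genes became 61, 10, 9, 0, 1, 0, 17, 15 and 0 in the same settings, with 0 to 11 when 1 array was left out and 0 to 10 with local centring. Local centring, 2 arrays as the minimum and both spots required gave 30, 30 and 35 clones. No alternative gave a clone for the difference between days. A replicate block gave 54 of 4641 clones tested (87.0% lower). The main fit did not treat same-numbered arrays of the 2 days as paired. Their deviations correlated with 0.0997 to 0.265, and each day-10 array correlated best with its own number. Whether the numbers mark pairs cannot be settled from these values. Read as already turned, signs reversed for CG2233 (0.32, local 0.03), Cyp313a1 (0.11), apolpp (0.47), Jhbp13 (0.08), CG44014 (0.09), CG17977 (0.25, local 0.18) and CG14253 (0.08, local 0.09), and locally for Jhbp14 (0.11) and Top3beta (-0.22). The causes were not tested, except that fewer clones were tested under the stricter filters.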

Other observations

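Several genes outside the report's lists and its naming rule had low values, chosen here after their values were seen. Cyt-b5-r, named as related to cytochrome b5, had -0.86, -0.43, -1.22 and -1.72 on arrays 1 to 4 (-1.06 ± 0.19, limma adjusted p = 0.0551). CG7135, with no function assigned here, had -1.03, -0.96 and -1.08 on arrays 1 to 3 (-1.04 ± 0.15, adjusted p = 0.0742) and -0.86 relative to its neighbours. CG7135 had only 1 day-14 value. The dye term passed for 0 of 7470 clones, with 577 negative and 947 positive at an unadjusted p under 0.05.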
